A study of Sus scrofa with 12 samples.

Results

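PI16, CCDC80, DPT, SPOCK1, SORCS2, MAP1A and PADI2 are 7 of the 35682 genes counted in pig hearts after a myocardial infarction. They were chosen by their difference between the tissue beside the infarct and the tissue far from it, in earlier results of these same libraries, and were proposed as adventitial-type fibroblast genes with consistent rises. The difference between the regions is therefore given for them as a description. Where calls from the test over all genes are given for them, they describe the fit and are no evidence, because the choice of the genes fixes them. All 7 were matched to an identifier and passed the filter on low counts, which left 13844 genes. SPOCK1 passed only through its border zone counts, with 0 to 5 counts in each remote zone library. SORCS2 was also low there, with 7 counts in the remote zone library of animal 1322 and 15 to 52 in the others.

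The hearts were those of 6 young Yorkshire pigs, which carry the numbers 1022, 1322, 1323, 1623, 1922 and 3622. In each, a balloon closed the left anterior descending coronary artery for 60 min. Tacrolimus at 0.75 mg/kg/day, mycophenolate mofetil at 500 mg/day and prednisolone at 20 mg/day were given from day 9, and a second operation on day 14 placed organoids of human endothelial progenitor and smooth muscle cells on the heart, held by fibrin glue, or the glue alone. Each animal gave 1 border zone library, from beside the infarct, and 1 remote zone library, from the posterior wall, both from the middle of the left ventricle, so the regions had 6 libraries each and shared all of these treatments. Which animal received organoids was not used here, so each region mixes both treatments. Totals of counts on genes ran from 15130210 to 30526110 in the border zone and from 20091415 to 31618680 in the remote zone. Among the border zone libraries, that of animal 1022 stood apart, with a summed CPM (read counts scaled to library size after TMM normalization) of 10073 over 8 cardiomyocyte markers, where the other 5 had 37179.7 or more. That of animal 3622 listed counts on 28024 genes, the most of any library, from the smallest total.

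Fibroblasts of the vessel adventitia are held to be a reserve of matrix-making cells in many organs, and PI16 together with DPT marks a fibroblast state found across tissues. After an infarct, fibroblasts divide, switch on periostin and collagens, and fill the lost muscle with scar, while the border zone keeps a mixture of muscle, vessels and new matrix. The 7 genes belong to several families. PI16 encodes a peptidase inhibitor of the CAP superfamily, and CCDC80 encodes a secreted protein that binds matrix. DPT encodes dermatopontin, a small matrix protein that binds decorin and helps collagen fibrils form. SPOCK1 encodes testican-1, a secreted proteoglycan of the SPARC family. SORCS2 encodes a sorting receptor of the VPS10P family that binds proneurotrophins, MAP1A a microtubule-associated protein best known from neurons, and PADI2 an enzyme that turns arginine in proteins into citrulline.

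The genes lie on 7 different chromosomes of Sscrofa11.1, so no pair of them are neighbours. In the RefSeq annotation PI16 is at chr7:32600952-32613505 on the plus strand with 8 exons, CCDC80 at chr13:147203333-147244753 on the plus strand with 8 exons and DPT at chr4:82287657-82319380 on the plus strand with 4 exons. On the minus strand are SPOCK1 at chr2:139018177-139523601 with 12 exons, SORCS2 at chr8:3207087-3715002 with 31 exons, MAP1A at chr1:127916639-127936952 with 8 exons and PADI2 at chr6:75696476-75755977 with 17 exons. DPT, SPOCK1, SORCS2 and MAP1A each overlap another annotated gene, but share 0 exon bases with it. The libraries did not keep strand.

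The 250 bases before the annotated start were read from the same assembly for all 7 genes, and 3 are shown, those of the gene with the most G and C (SORCS2), of a gene low in G and C (DPT) and of the only gene with an AP-1 motif (SPOCK1). They are written 5′ to 3′ on the strand of the gene, from chr4:82287407-82287656 for DPT, chr2:139523602-139523851 for SPOCK1 and chr8:3715003-3715252 for SORCS2. Of 8 motifs searched on both strands, capitals mark a match to any of 4, the AP-1 motif TGANTCA, the TEAD motif GGAATG, the CCAAT box (CCAAT) and the TATA box TATAAA.
DPT: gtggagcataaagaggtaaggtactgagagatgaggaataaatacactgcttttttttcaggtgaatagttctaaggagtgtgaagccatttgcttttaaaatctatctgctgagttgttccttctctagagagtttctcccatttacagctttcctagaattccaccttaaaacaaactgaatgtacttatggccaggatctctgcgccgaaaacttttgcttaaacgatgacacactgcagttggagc
SPOCK1: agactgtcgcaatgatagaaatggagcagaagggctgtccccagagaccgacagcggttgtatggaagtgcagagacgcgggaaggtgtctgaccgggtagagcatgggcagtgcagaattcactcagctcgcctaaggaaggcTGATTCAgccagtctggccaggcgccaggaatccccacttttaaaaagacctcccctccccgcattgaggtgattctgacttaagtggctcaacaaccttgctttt
SORCS2: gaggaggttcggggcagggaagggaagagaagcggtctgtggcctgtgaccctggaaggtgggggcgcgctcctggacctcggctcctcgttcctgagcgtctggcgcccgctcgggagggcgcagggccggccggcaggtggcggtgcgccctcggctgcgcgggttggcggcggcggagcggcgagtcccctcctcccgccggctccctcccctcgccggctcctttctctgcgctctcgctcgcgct

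The promoter of SORCS2 was 75.2% G and C with 31 CpG dinucleotides, that of DPT 40.0% with 3 and that of SPOCK1 54.0% with 9. The lowest was that of CCDC80, at 35.6% with 2 CpG, and those of PI16, MAP1A and PADI2 were at 62.8%, 68.4% and 60.8%, where the median of 20651 promoters of the same length was 57.2%. The AP-1 motif was present in 1 of the 7, SPOCK1, and in 5.5% of all promoters. The TEAD motif was in 1 of the 7, PADI2, and in 10.4% of all promoters, the CCAAT box in 1, MAP1A, and in 32.0%, and the TATA box in none of the 7 and in 10.4%. Of the 4 motifs without capitals, 3 were found in several of the genes. The SMAD motif CAGAC was in 5 of the 7 and in 38.7% of all promoters, the E-box CANNTG in 5 and 62.3%, the NF1 half-site TTGGC in 3 and 39.8%, and the GC box GGGCGG in 1, MAP1A, and 44.5%. The CCAAT box of MAP1A overlaps its NF1 half-site. A match is a description of letters and not a binding site.

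PI16 was at 125.5 to 752.4 CPM in the border zone, with a median of 206.7, and at 22.1 to 34.6 CPM in the remote zone, with a median of 26.1. The lowest border zone library was 3.63 times the highest remote zone library. The within-animal difference, border zone minus remote zone on the log2 CPM scale, ran from 2.10 in animal 1323 to 4.64 in animal 1022. The log2 fold change fitted over all libraries was 3.43 (standard error 0.43, n = 6 a region).

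CCDC80 was at 127.2 to 784.4 CPM in the border zone, with a median of 245.4, and at 28.0 to 49.9 CPM in the remote zone, with a median of 36.9. As for PI16, the lowest border zone library was that of animal 1322 and the highest that of animal 1022, with 40.3% of the CPM summed over the border zone for CCDC80 and 43.0% for PI16. The within-animal differences of CCDC80 were 2.18 to 2.997 on the log2 scale in 5 animals and 4.69 in animal 1022. Its fitted log2 fold change was 3.10 (standard error 0.40).

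DPT did not follow the others. Its border zone libraries held 84.9 to 148.6 CPM, with a median of 114.0, and its remote zone libraries 53.5 to 117.2 CPM, with a median of 60.5. The regions overlapped, because the remote zone library of animal 3622, at 117.2 CPM, was above the border zone libraries of animals 1322, 1623 and 3622, at 84.9, 86.6 and 102.1 CPM. In animal 3622 the border zone was lower than the remote zone, by -0.20 on the log2 scale, and in the other 5 animals it was higher by 0.48 to 1.47. The fitted log2 fold change was 0.74 (standard error 0.23), and DPT did not pass the threshold used below. This depends on the scaling. With library totals in place of TMM, DPT was higher in the border zone of animal 3622 too, by 0.50 on the log2 scale, and the regions did not overlap, whereas with DESeq2 size factors the difference was -0.28. The remote zone library of animal 3622 also had the highest share of counts on mitochondrial genes, 33.5%, and the part of that in its DPT level was not tested. So the description as a consistent rise holds for DPT only with library totals among these 3 scalings.

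SPOCK1 was the least abundant of the 7. Its border zone libraries held 29 to 48 counts, or 1.001 to 2.63 CPM with a median of 1.43, and its remote zone libraries 0 to 5 counts, or 0 to 0.242 CPM with a median of 0.101. Over the 6 libraries of each region these were 225 and 14 counts. The count of 0 was in the remote zone library of animal 1022, where it allows a level of up to 0.119 CPM by 3 counts, a limit for counting error only. The fitted log2 fold change was 3.83 (standard error 0.51), while the within-animal differences of log2 CPM, which use a prior count of 2, averaged 3.16. SPOCK1 was highest in the border zone library of animal 3622, the library with counts on the most genes, and lowest in that of animal 1323.

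SORCS2 was at 6.36 to 48.1 CPM in the border zone, with a median of 16.0, and at 0.339 to 1.98 CPM in the remote zone, with a median of 1.21. The highest border zone library was that of animal 1022 and the lowest that of animal 1922. Its within-animal differences ran from 2.22 in animal 1922 to 5.20 in animal 1022 on the log2 scale. Its fitted log2 fold change, 4.02 (standard error 0.54), was above the 3.83 of SPOCK1 and those of the other 5. The order of SORCS2 and SPOCK1 depends on the fit, with 3.81 and 3.84 with the animal as a block, 3.50 and 3.55 without animal 1022, and 3.995 and 4.24 without animal 1322.

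MAP1A was at 33.9 to 105.9 CPM in the border zone, with a median of 55.6, and at 5.38 to 19.2 CPM in the remote zone, with a median of 9.22. Its within-animal differences were between 1.56 in animal 1323 and 2.92 in animal 3622, with an SD of 0.55 over the 6 animals, the lowest SD among the 7 genes. The fitted log2 fold change was 2.42 (standard error 0.34).

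PADI2 was at 4.63 to 29.4 CPM in the border zone, with a median of 16.98, and at 1.82 to 4.35 CPM in the remote zone, with a median of 2.89. Its regions barely separated, since the lowest border zone library, that of animal 1322, was 1.07 times the highest remote zone library. The within-animal difference was 0.78 in animal 1322 and 3.95 in animal 1022, and its SD over the animals, 1.10, was the highest of the 7. The fitted log2 fold change was 2.51 (standard error 0.37).

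**Figure D1:**
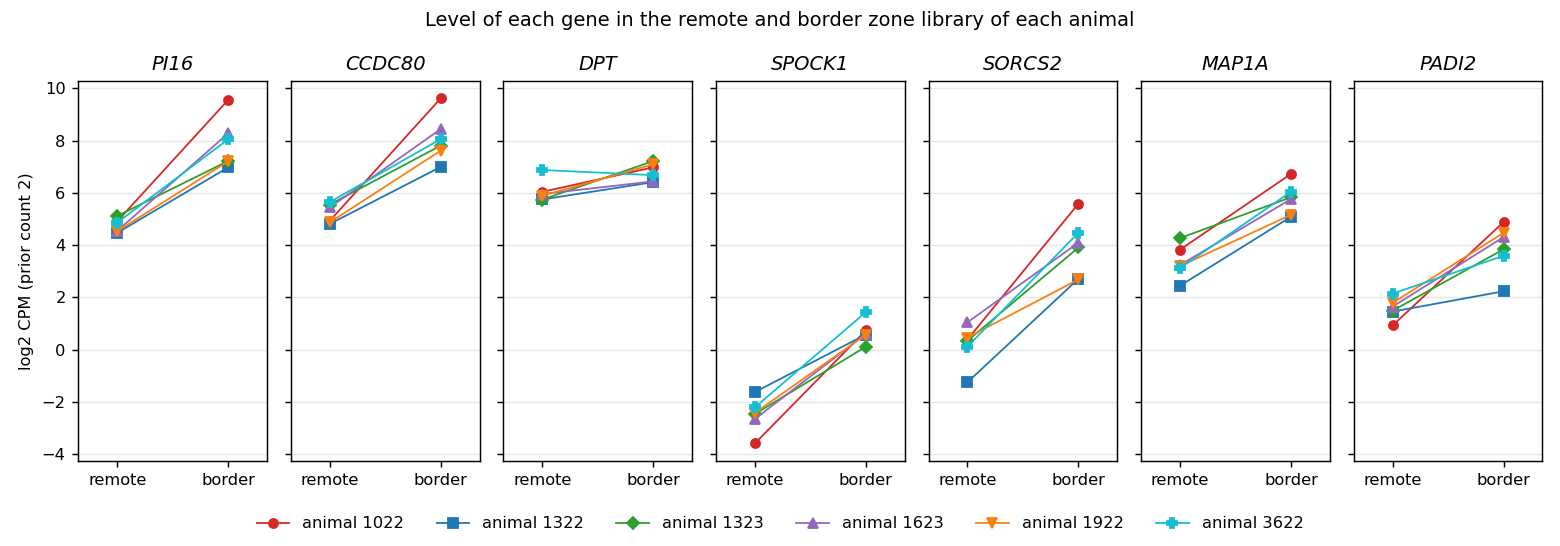
Level of each of the 7 genes in log2 CPM (vertical axis, prior count 2) in the remote and border zone library of each animal, with a line joining the libraries of 1 animal. The lines of 6 genes rise in all 6 animals, and that of DPT in animal 3622 goes down (-0.20 here with TMM scaling, 0.50 with library totals).

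**Figure D2:**
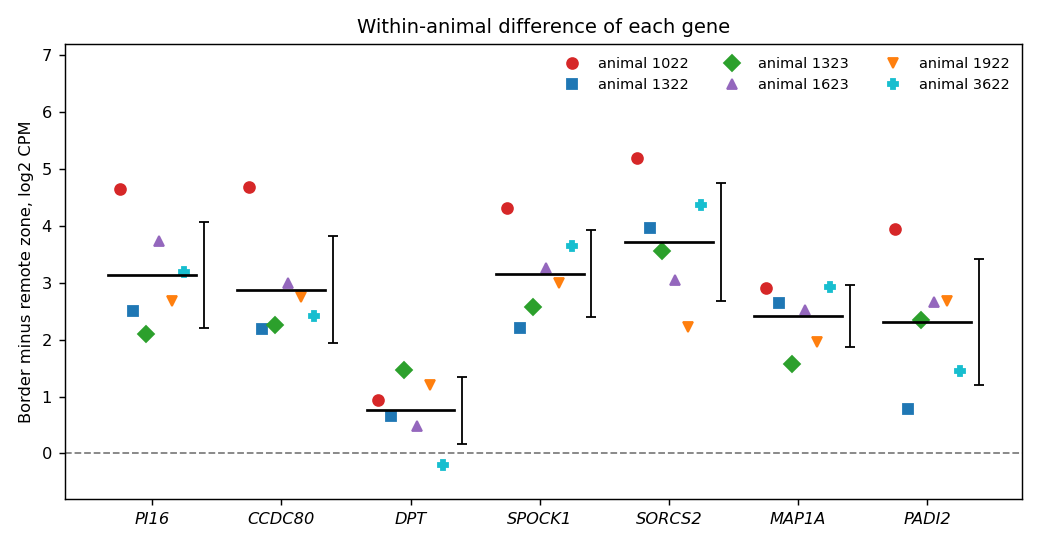
Border zone minus remote zone in log2 CPM (vertical axis) for each gene and animal. Points are animals, black lines the mean over 6 animals and bars 1 SD on either side. Animal 1022 (circles) has the largest difference in 4 of the 6 genes other than SPOCK1, for which its remote zone count is 0 and the plotted value depends on the prior count of 2.

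Over the 7 genes, the border zone of animal 1022 was the highest of the 6 for 5 genes, that of animal 1323 for DPT and that of animal 3622 for SPOCK1. The border zone of animal 1322 was the lowest for 5 genes. Over the 6 genes other than SPOCK1, whose remote zone count in animal 1022 is 0, the median difference was 4.30 in animal 1022 and between 2.18 and 2.83 in the other animals. The border zone library of animal 1022 also had the lowest summed cardiomyocyte markers and 69028 CPM over the 12 activated fibroblast genes, against 3196.5 to 11112 CPM in the other border zone libraries. The median over the 7 genes of the mean within-animal difference was 2.88, and it was 2.52 without animal 1022. In bulk tissue, more cells of a type and more RNA per cell cannot be told apart.

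The regions were compared over all genes by the quasi-likelihood test of edgeR, with p-values adjusted after Benjamini and Hochberg and a threshold of 0.05. At that threshold 2.06% of the genes tested were higher beside the infarct and 0.0144% lower. Of the 7 genes, 6 were higher and DPT was not past the threshold, a count that the choice of the genes fixes. With the animal as a block, 0.289% of all genes were higher, and 5 of the 7, without DPT and PADI2. All border zone libraries were above all remote zone libraries for 6 of the 7 genes and for 1.99% of the genes tested. Every animal had the higher level in its border zone for the same 6 and for 11.7% of the genes tested. Without animal 1623 or without animal 3622, 0 genes passed the threshold in edgeR, none of the 7 among them, while 2662 and 2448 genes had an unadjusted p under 0.05. Without animal 1323 the count was 3 genes, of which PI16 and MAP1A were 2, and without animal 1922 it was 15, with 5 of the 7. The third of the 3 was CILP, of the activated fibroblast genes below. Of the genes in the lists below, CILP alone passed without animal 1323 or without animal 1922, and none passed without animal 1623 or without animal 3622. Of the 25 list genes called with all animals, 7 lost the call without animal 1022, where 1.18% of all genes passed, and are named beside their values. Without animal 1322, where 3.72% passed, all 25 were called and 10 more, which were DPP4, NEGR1, MEOX1, CRISPLD1, CRISPLD2, SRPX, ITGA3, CSPG4, ADIPOQ and PLIN1. With no filter, where 0.462% passed, 12 of the 25 lost the call, which were FBLN2, POSTN, LOX, TNC, COL1A1, COL1A2, FN1, VCAN, GLIPR1, SMOC1, SMOC2 and NGFR. Calls made with the block, library totals, no filter or the DESeq2 Wald test were not refitted with animals left out. With library totals 11.2% of all genes passed, among them 44 further list genes. In the DESeq2 Wald test 10.3% of the 16688 genes with an adjusted p passed. Among them were 29 further list genes that had passed the filter on low counts, and NTRK3 and STMN2, which had not.

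Per length of exon in the RefSeq annotation, PI16 was the most abundant in the border zone, with a median of 112.3 CPM per kb, ahead of DPT at 63.7 and CCDC80 at 35.7. MAP1A followed at 5.21, PADI2 at 3.24, SORCS2 at 2.35 and SPOCK1 at 0.283 CPM per kb. The ranges of neighbours in this order overlapped, except between CCDC80 and MAP1A and between SORCS2 and SPOCK1. In the remote zone DPT came first, at a median of 33.8 CPM per kb, and PI16 second at 14.2, and their ranges did not overlap. The order of the other 5 was the same, with CCDC80 at 5.38, MAP1A at 0.865, PADI2 at 0.552, SORCS2 at 0.177 and SPOCK1 at 0.0201, and only the ranges of MAP1A and PADI2 overlapped. The level of PI16 per kb was above that of DPT in the border zone of 5 of 6 animals and in the remote zone of 0 of 6.

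The spread between animals differed among the genes. On the log2 CPM scale, the SD of PI16 was 0.97 in the border zone and 0.26 in the remote zone, and that of CCDC80 was 0.89 and 0.38. SORCS2 had 1.11 and 0.77, and PADI2 0.93 and 0.40. For DPT (0.34 and 0.42), SPOCK1 (0.43 and 0.64) and MAP1A (0.61 and 0.63) the SD was not larger in the border zone.

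Whether an animal with a high remote zone level also had a high border zone level was tested for the 7 genes over 6 animals each, by a two-sided exact permutation test over all 720 orders. None of the 7 relations passed the threshold. For MAP1A, the highest, Pearson's r was 0.61 (exact permutation p = 0.188, adjusted p = 0.936 over the 7 genes) and Spearman's rho 0.54 (exact permutation p = 0.297, adjusted p = 0.830), and without the 2 animals farthest from the median remote zone level r was 0.77. For the lowest, PADI2, r was -0.24 (exact permutation p = 0.621, adjusted p = 0.936) and rho -0.20 (exact permutation p = 0.714, adjusted p = 0.999), and r was 0.79 without those 2 animals. The r of the others was 0.29 for PI16, 0.09 for CCDC80, -0.17 for DPT, 0.04 for SPOCK1 and 0.43 for SORCS2, with exact permutation p from 0.408 to 0.936 (adjusted p = 0.936 for each), and rho from -0.26 to 0.60, with exact permutation p from 0.242 to 1. Without the 2 farthest animals these became 0.70, -0.28, 0.47, 0.67 and -0.35. With 6 animals only strong relations could pass. The remote zone order of SPOCK1 rests on 0 to 5 counts a library and on the prior count, so its r and p cannot decide the question.

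The genes were also set beside each other within the regions, by the deviations of their log2 CPM from the mean of each region over the 12 libraries. These libraries share animals, and the r is a description. PI16 and CCDC80 deviated most alike, with r = 0.92, and 0.84 without animal 1022. PI16, CCDC80, SORCS2 and MAP1A had r between 0.70 and 0.92 among each other, and between 0.57 and 0.84 without animal 1022. PADI2 went with CCDC80 (0.74, and 0.64 without animal 1022) more than with MAP1A (0.27 and 0.14). SPOCK1 and DPT stood apart, with r of -0.29 to 0.18 for SPOCK1 and of -0.14 to 0.49 for DPT with the other genes, and SPOCK1 has few counts.

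**Figure D3:**
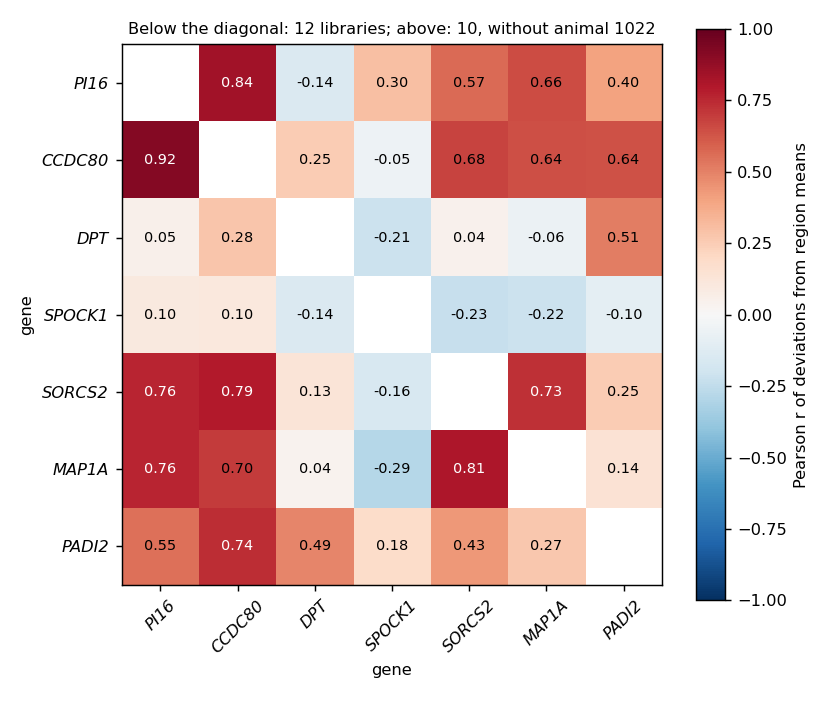
Pearson r between genes (both axes) of the deviations of log2 CPM from the region means, over 12 libraries below the diagonal and 10 libraries, without animal 1022, above it. PI16, CCDC80, SORCS2 and MAP1A form a block of r from 0.70 to 0.92 below the diagonal, and DPT and SPOCK1 lie outside it.

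By the same measure, the other genes with a symbol most like PI16 were COL8A1 (r = 0.97), LTBP2 (0.97) and NCKAP1L (0.96), and those most like CCDC80 were RCN1 (0.98), CCN3 (0.98) and ADAMTS17 (0.97). COL8A1 encodes a short-chain collagen of vessel walls, LTBP2 a microfibril protein and CCN3 a matricellular protein. For DPT they were PLXDC1 (0.88), TCF21 (0.85), a transcription factor of resident fibroblasts, and CD209 (0.84). For MAP1A they were IL27RA (0.94), CCDC88A (0.93) and PLEKHA4 (0.93), for SORCS2 UTP6 (0.95), JMJD8 (0.94) and SEPTIN11 (0.94), for PADI2 CNTFR (0.92), DLG4 (0.91) and CREB3L1 (0.91), and for SPOCK1 PTPRR (0.91), TBX6 (0.88) and AATF (0.87). Without animal 1022 all of these stayed at 0.845 or above. The highest r of 13844 genes over 12 libraries is high by selection, so these names are a description.

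The relatives of each gene were taken from lists. In the CAP superfamily, 3 of the 5 relatives of PI16 that were tested rose in the border zone by edgeR's quasi-likelihood test, against 2.06% of all genes. PI15 was at 4.48 to 11.6 CPM in the border zone and at 0.630 to 2.98 CPM in the remote zone, without overlap, and rose by 2.02 on the log2 scale (standard error 0.40, edgeR adjusted p = 0.0277, and 0.0495 with the animal as a block). GLIPR1 and GLIPR2 rose by 1.80 and 1.36 on the log2 scale (edgeR adjusted p = 0.0466 and 0.0338), and neither passed with the block (0.0774 and 0.0773). CRISPLD1 (2.62, edgeR adjusted p = 0.0501) and CRISPLD2 (1.72, 0.0643) did not pass, but did without animal 1322 (edgeR adjusted p = 0.0434 and 0.0479). Without animal 1022, none of the 5 passed in edgeR, and PI15 had 1.72 (edgeR adjusted p = 0.0575). The median over the 5 was 1.80 with all animals and 1.41 without animal 1022. CRISP3 and R3HDML were under the filter, at 0.672 CPM or less.

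SRPX and SRPX2, secreted proteins related to CCDC80, did not pass, with log2 fold changes of 1.69 and 1.18 (edgeR adjusted p = 0.0646 and 0.0982), and 4 of 6 animals had more of each in the border zone. Their median was 1.43 with all animals and 0.91 without animal 1022. Of the 7 relatives of SPOCK1, 4 rose, against 2.06% of all genes, and none passed with the block, where 0.289% of all genes were higher. SPARC, the collagen-binding glycoprotein that names the family, was at 716.7 to 9770 CPM in the border zone and 192.2 to 545.5 CPM in the remote zone, a log2 fold change of 2.90 (standard error 0.59, edgeR adjusted p = 0.032, and 0.0829 with the block). The border zone library of animal 1022 held the 9770 CPM and the other 5 held 1987 or less, and without that animal the log2 fold change of SPARC was 1.77 (edgeR adjusted p = 0.0123). SMOC2, SMOC1 and FSTL1 rose by 2.15, 2.01 and 1.76 on the log2 scale (edgeR adjusted p = 0.0338, 0.0495 and 0.0328), of which SMOC2 was lost without animal 1022. The other testicans did not pass, with a log2 fold change of -0.24 for SPOCK2 (edgeR adjusted p = 0.681), which was 0.08 with library totals, and of 0.87 for SPOCK3 (0.321).

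Of the other VPS10P receptors, SORT1 and SORL1 were tested and did not pass (log2 fold changes of 0.51 and 0.32, edgeR adjusted p = 0.333 and 0.481), and SORCS1 and SORCS3 were under the filter, at 1.02 CPM or less. Of the 4 neurotrophins and receptors tested, 1 rose, against 2.06% of all genes. NGFR, which encodes the p75 receptor that pairs with sorting receptors in binding proneurotrophins, was at 5.02 to 53.0 CPM in the border zone and 1.16 to 6.22 CPM in the remote zone, and these ranges overlapped. In 6 of 6 animals its border zone level was the higher, and the log2 fold change was 2.52 (standard error 0.52, edgeR adjusted p = 0.032, and 0.0476 with the block). Its border zone level was 53.0 CPM in animal 1022 and 5.02 to 21.6 CPM in the others, and without animal 1022 NGFR did not pass (1.97, edgeR adjusted p = 0.0646), nor did it with no filter. The ligand genes BDNF and NTF3 did not pass, with log2 fold changes of 0.28 and 0.09 (edgeR adjusted p = 0.886 and 0.925). NTRK2, a receptor for BDNF, had 1.93 (edgeR adjusted p = 0.0861).

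None of the 6 other microtubule-associated proteins tested and none of the 8 tubulins passed by edgeR, where 2.06% of all genes were higher, except TUBB6 with library totals. Their median log2 fold changes were 0.25 and 0.21, where the median of all genes was 0.04. MAP1B, the closest relative of MAP1A, was at 21.9 to 108.4 CPM in the border zone and 5.82 to 48.8 CPM in the remote zone (log2 fold change 0.89, standard error 0.49, edgeR adjusted p = 0.269, and 0.0879 with the block). MAP4, the most abundant, was at 599.6 to 946.6 and 444.3 to 869.6 CPM. Among the peptidylarginine deiminases PADI2 was the only one to pass the filter. PADI1, PADI3 and PADI4 were at 1.45, 0.183 and 0.496 CPM or less in every library, and PADI6 was at 0 counts in all 12.

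Of the 7 genes for partners of dermatopontin, 3 rose, against 2.06% of all genes, and none passed with the block, where 0.289% of all genes were higher. TGFB3, a ligand of the TGF-beta family, rose by 2.43 on the log2 scale (standard error 0.37, edgeR adjusted p = 0.0123, and 0.0564 with the block), and its border zone libraries, at 27.3 to 164.8 CPM, did not overlap those of the remote zone, at 8.47 to 16.1 CPM. FN1, fibronectin, and VCAN, versican, rose by 5.09 and 2.99 (edgeR adjusted p = 0.0294 and 0.0341). The border zone library of animal 1022 stood apart, with 7553 CPM of FN1 against 147.5 to 532.3 CPM in the others, and 507.9 CPM of VCAN against 24.3 to 75.7 CPM. Without it the log2 fold changes were 2.71 and 1.65 (edgeR adjusted p = 0.00552 and 0.0104), and with the block they were 3.20 and 2.05. TGFB1 and TGFB2 had log2 fold changes of 0.26 and 0.75 and the integrin genes ITGA3 and ITGB1 0.78 and 0.77, and none of these 4 passed. DCN, the gene of decorin, was not in this list of partners. It had a log2 fold change of 1.14 (edgeR adjusted p = 0.0509), was higher in the border zone of 5 animals, and did not pass.

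The proposed name was set against lists of fibroblast genes. Of 20 genes known from adventitial and universal fibroblasts, 17 had an identifier and all 17 were tested. FBLN2, a matrix protein of elastic fibres, and OGN, a small leucine-rich proteoglycan, rose, by 1.51 and 1.28 on the log2 scale (standard errors 0.34 and 0.28, edgeR adjusted p = 0.0404 and 0.0338), and neither passed with the block (0.082 and 0.0814). Without animal 1022 FBLN2 passed (edgeR adjusted p = 0.0456) and OGN did not (0.0968). PENK had 4.26 (edgeR adjusted p = 0.0501), and its 84.5 CPM in the border zone of animal 1022 stood against 1.41 to 8.17 CPM in the others, and without that animal it had 1.87 (edgeR adjusted p = 0.125). C3 had 1.75 (edgeR adjusted p = 0.0514), and 1.14 without animal 1022, where it passed (0.0104). DPP4, a surface marker of adventitial fibroblasts, was at 15.8 to 56.5 CPM in the border zone and 40.9 to 70.8 CPM in the remote zone, lower in the border zone of 6 of 6 animals, and did not pass (log2 fold change -0.79, edgeR adjusted p = 0.124, and 0.0602 with the block), except without animal 1322, where it passed as lower (-0.98, edgeR adjusted p = 0.0426). CLEC3B had 0.14 (edgeR adjusted p = 0.855). The median over the 17 was 1.02, where that of all genes was 0.04, and 16 of the 17, all but DPP4, had a log2 fold change above 0. Without animal 1022 the median was 0.65. The number past the threshold moved with the scaling and the tool, to 13 of 17 with library totals and 8 of 15 with an adjusted p in the DESeq2 Wald test, from 2 here and 0 with the block. The share of all genes moved too, to 11.2% and 10.3% from 2.06% higher here and 0.289% higher with the block.

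Of the 11 resident cardiac fibroblast genes tested, LUM and PDGFRA rose, by 1.97 and 1.26 on the log2 scale (edgeR adjusted p = 0.0338 and 0.0355), against 2.06% of all genes. With the block 0 passed, where 0.289% of all genes were higher. PDGFRA did not pass without animal 1022 (edgeR adjusted p = 0.0798), and the median over the list was 0.86 without that animal and 1.26 with all. With library totals and in the DESeq2 Wald test 6 of 11 passed, where 11.2% and 10.3% of all genes did. MGP had the largest log2 fold change of the list and did not pass (edgeR adjusted p = 0.0509). The lowest were GPX3 with -0.57 and ABCA8 with -0.22, and neither passed. Of the 12 activated fibroblast genes, 11 rose, against 2.06% of all genes, with a median of 3.36 over the list. With no filter 5 of 12 passed, where 0.462% of all genes did. CILP, a matrix protein of scar fibroblasts, rose by 3.98 (standard error 0.52, edgeR adjusted p = 0.00875, and 0.0209 with the block). CTHRC1, a secreted protein of scar fibroblasts, rose by 5.08 (standard error 0.80, edgeR adjusted p = 0.0164, and 0.041 with the block), and POSTN, periostin, by 3.44 (standard error 0.78, edgeR adjusted p = 0.0396, and 0.041 with the block). CTHRC1 was at 3.80 to 68.0 CPM in the border zone and 0.0484 to 1.27 CPM in the remote zone, so its fold change rests on remote zone levels near 0. CILP, CTHRC1 and POSTN were the 3 that passed with the block, where 0.289% of all genes were higher. TNC, tenascin C, rose by 5.31, and FN1, COL1A1, COL1A2, THBS4, LOX, COL3A1 and FAP rose by 2.36 to 5.09. Without animal 1022 these were lower, at 3.53 for TNC, 2.37 for COL1A1, 1.98 for COL1A2 and 1.92 for LOX, and CTHRC1, at 4.04, was above TNC, as it was with the block (4.58 and 4.29). The one that did not pass was MEOX1 (1.24, edgeR adjusted p = 0.0537). Without animal 1022, where 1.18% of all genes passed, the same 11 passed and the median over the list was 2.36. The lists were not tested against each other, and how well the proposed name adventitial-type describes the 7 genes was not tested.

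**Figure D4:**
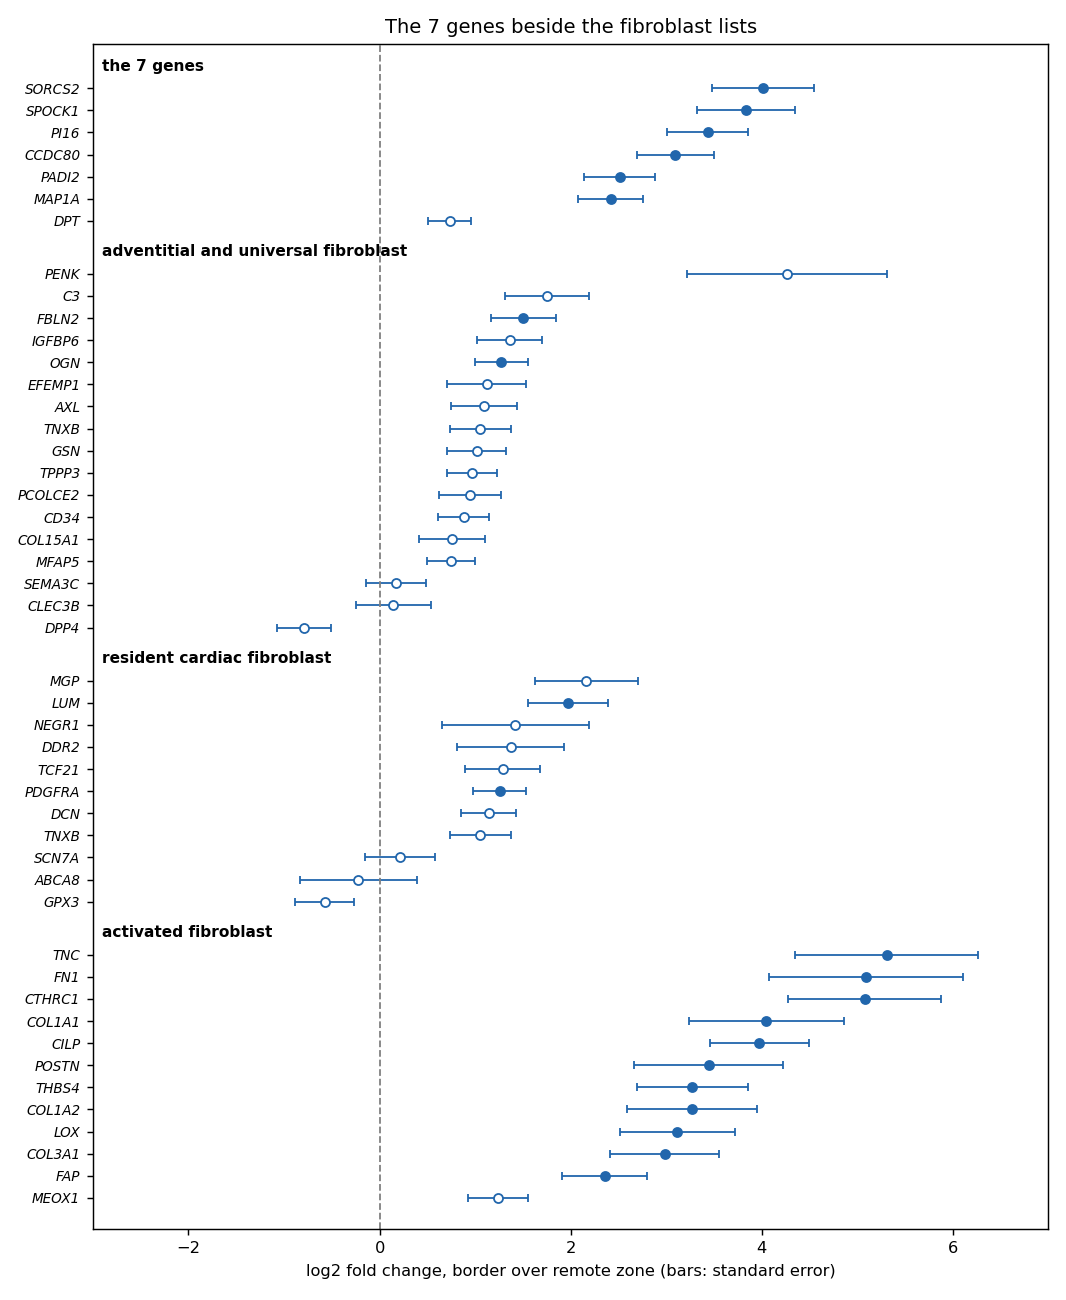
Log2 fold change of border zone over remote zone (horizontal axis, bars 1 standard error) for the 7 genes and for 3 lists of fibroblast genes. Filled circles have an edgeR adjusted p under 0.05. These are 6 of the 7 genes, a count that their choice fixes, and 2 of 17 adventitial, 2 of 11 resident and 11 of 12 activated fibroblast genes, where 2.06% of all genes were higher.

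Markers of other cells were read in the same libraries. The 8 cardiomyocyte markers with an identifier summed to 10073 to 60917 CPM in the border zone and 49085 to 93329.8 CPM in the remote zone, lower in the border zone of every animal, and 0 of 8 passed in edgeR. Also 0 passed of the 10 endothelial (median log2 fold change 0.16), 10 smooth muscle and pericyte (1.33), 9 macrophage (1.46), 9 Schwann cell (0.71), 5 adipocyte (1.08) and 2 mesothelial (0.32) markers tested. Of all genes 2.06% were higher, so a count of 0 in lists this short says little. With the animal as a block, ADIPOQ, the gene of adiponectin, passed (log2 fold change 5.72, edgeR adjusted p = 0.0476), at 26.8 CPM or less. It was at 0 in 5 libraries, with a remote zone median of 0, so this size rests on levels at the floor. The most abundant adipocyte markers, LPL and FABP4, had log2 fold changes of -0.52 and -0.46 and did not pass. ADIPOQ, PLIN1 and CIDEC had 5.37, 3.04 and 1.08 without the block and did not pass either. The summed adipocyte markers were lower in the border zone of 5 of 6 animals, at 206.6 to 1095 CPM against 760.1 to 1062 CPM. LPL made up most of this sum, with medians of 608.4 and 835.4 CPM where the sum had 662.4 and 909.3. These counts depend on the scaling and the tool. With library totals, 8 of 9 macrophage, 7 of 10 smooth muscle and pericyte, 2 of 9 Schwann cell and 2 of 5 adipocyte markers passed, where 11.2% of all genes did. Of the markers with an adjusted p in the DESeq2 Wald test, 4 of 8 macrophage, 5 of 9 smooth muscle and pericyte, 2 of 6 adipocyte and 1 of 8 cardiomyocyte markers passed, where 10.3% of all genes did. The cardiomyocyte marker was TNNI3, which was lower in the border zone (log2 fold change -1.10 in edgeR). No endothelial marker passed under any setting. Without animal 1022 the medians were 0.65 for macrophage, 0.70 for smooth muscle and pericyte, 0.36 for Schwann cell and -0.02 for endothelial markers. Without animal 1323 those of adipocyte and mesothelial markers were 0.18 and 0.02. Without animal 1322, ADIPOQ, PLIN1 and the pericyte marker CSPG4 passed. CD68, the macrophage marker with the largest log2 fold change, had 3.20 and without animal 1022 1.31. At an unadjusted p under 0.05 by edgeR, 3425 genes passed over all genes tested. The summed macrophage markers were 131.8 to 1492 CPM in the border zone and 121.1 to 257.4 CPM in the remote zone, and the summed Schwann cell markers 34.8 to 132.1 and 24.6 to 57.0 CPM.

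Because SORCS2 and MAP1A are known from neurons, 7 neuronal markers were included. Their summed level was 5.09 to 21.1 CPM in the border zone and 0.634 to 7.62 CPM in the remote zone, higher in the border zone for 6 of 6 animals. UCHL1 made up most of this sum, with medians of 10.2 and 0.891 CPM where the sum had 11.7 and 1.13. TH, DBH and SNAP25 were at 0 in 6 of 6 remote zone libraries and at 0.611 CPM or less in the border zone. PRPH and ELAVL4 were at 0.611 CPM or less in every library. STMN2, also under the filter, was at 0.0486 to 4.16 CPM in the border zone and 0 to 0.231 CPM in the remote zone, and passed in the DESeq2 Wald test (log2 fold change 3.19, DESeq2 adjusted p = 0.0385) but not in edgeR with no filter (edgeR adjusted p = 0.156). UCHL1, the only one to pass the filter, was at 4.77 to 16.3 CPM in the border zone and 0.461 to 6.82 CPM in the remote zone, higher in 6 of 6 animals, with a log2 fold change of 2.40 that did not pass (edgeR adjusted p = 0.0619, and 0.0564 with the block) but did with library totals and in the DESeq2 Wald test. The part of macrophages, smooth muscle, nerve and of the lower muscle share in the levels of the 7 genes was not tested.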

How the data were processed

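RNA was extracted from the border and remote zone of 6 pig hearts. Per the labels and the methods of the study, poly(A) RNA was sequenced as nondirectional paired ends, aligned to Sscrofa11.1 (Ensembl release 113) with STAR 2.7.10a and counted with featureCounts 2.16.1. The authors deposited raw counts per gene, 35682 in all. How reads with several matches were counted is not given in the sources used here. Total counts were 15130210 to 31618680 per library, and PCR copies were not told apart.

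Regions and animals were taken from the labels. A symbol table named 15623 identifiers. Genes were filtered by filterByExpr, scaled by TMM and tested with edgeR 4.0.16 in R 4.3.3 (quasi-likelihood, robust, region as the only term, Benjamini-Hochberg adjustment, threshold 0.05). Standard errors were log2 fold changes divided by the root of F. Log2 CPM used a prior count of 2. Correlations used SciPy 1.17.1. Separate animals stand behind the libraries of a region.

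Same-numbered libraries share an animal and are paired. Across genes, their deviations from the means of the regions had r from -0.03 to 0.57 (mean 0.35), over 0.1 in 4 of 6 pairs.

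The 7 genes and all lists were chosen with earlier results of these data known. Some list genes are not reported here. Named were the 7 genes and their measured relatives. In the fibroblast lists, the genes past the threshold and the 2 with the largest and 2 with the smallest log2 fold change were named. The marker lists are given by their counts, and single markers were named after their values were seen, as were list genes whose call changed with a setting. For each of the 7, the 3 most similar genes were named. The fit of the region contrast was tested on simulated data of 13713 genes. It found 84.8% of 4-fold and 35.4% of 2-fold changes, with 4 false calls. Alternatives were the animal as a block, DESeq2 1.42.0, other scalings, filters and prior counts, and each animal left out.

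Loci, exon lengths and promoters came from the RefSeq annotation of Sscrofa11.1, the assembly the counts were made on. Gene models of Ensembl and RefSeq can differ.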

Additional observations from a re-analysis of the deposited data

Results flagged for a closer look

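For the 7 genes, 21 groups of 6 values were examined for a lone sample, the border zone levels, the remote zone levels and the within-animal differences, each on the log2 CPM scale. The gap of the highest or lowest value to its nearest neighbour, over the whole range, was compared with Dixon's 95% limit. Chance sets apart about 1 in 20 groups, and 2 were set apart here. The difference of CCDC80 in animal 1022 was 4.69, with 2.997 next (gap over range 0.674). The remote zone level of DPT in animal 3622 was 6.87, with 6.04 next (gap over range 0.739). The cause of either was not tested.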

How the results depend on the processing

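Of the 13844 genes, 287 passed the threshold between the regions. A replicate block for the animal gave 41 genes, library totals only 1551, the minimum of 10 counts in every library 149, no filter 139 and the DESeq2 Wald test 1724. With each animal left out in turn it ran from 0 to 519. DESeq2 size factors (211) and leaving out mitochondrial genes (254) kept it within 1.5 times. Under library totals the median over all genes was 0.32 instead of 0.04 on the log2 scale, and there, as in the DESeq2 Wald test, DPT also passed and was higher in 6 of 6 animals by library totals. The median over the 7 genes of the mean within-animal difference, 2.88, ran from 2.45 to 3.18 under the other settings and from 2.52 to 3.01 when animals were left out in turn. With at least 10 counts in every library, SPOCK1 and SORCS2 were not tested. The log2 fold change of each of the 7 genes kept its direction and moved by less than 1 SD in all 89 fits compared, 42 of them with 1 animal left out. The block lost the call of PADI2 and no other of the 7.

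The median r between the regions over the 7 genes, 0.09, ran from 0.06 to 0.325 under the other scalings and prior count and from -0.16 to 0.32 when animals were left out in turn, and was below 0 without animal 1322. It was 0.67, the r of SPOCK1 with its few remote zone counts, without the 2 animals of each gene farthest from its median remote zone level. No relation passed with all animals or without any 1 of them, or under the other scalings and prior count. For the lists, 35 of 140 counts under other settings and 35 of 120 with 1 animal left out differed by more than 1.5 times from the reported ones. Apart from fewer genes or samples tested, the cause was not tested. Few remote zone counts limit SPOCK1, and 2-fold changes, larger than that fitted for DPT, were found in 35.4% of simulated cases.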
